A study of Rattus norvegicus with 35 samples.

Results

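The genes described here encode proteins that bind fatty acids inside the cell or bring them in: 5 fatty acid binding proteins (Fabp1, Fabp2, Fabp4, Fabp5 and Fabp7), the surface receptor Cd36 and the transporter Slc27a2. The family was chosen by the measured levels of Fabp1 and Fabp5. These differed from the vehicle in opposite directions on the arrays of the highest fungicide dose. The other members of the family were taken by name, with earlier results of these data known. The 7 genes are 7 of 14217 genes on the array that had a probe set of their own. Each was read by 1 probe set, and an additional probe set is annotated to both Cd36 and its relative Cd36l1. The 7 genes also passed the filter on low values, Fabp4 through only 4 of 35 arrays.

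The cells were primary rat hepatocytes, liver cells taken from the animal and kept in culture, which received compounds through the medium for 72 h before their RNA was read on Affymetrix rat expression arrays. The groups were the triazole fungicides Propiconazole, Myclobutanil and Triadimefon, each at 10, 30 and 100 uM, PB (phenobarbital) at 200 uM, PCN at 30 uM, and the vehicle DMSO at 0.1%. The 12 groups held 3 arrays each, 1 for each label code (Rs256, Rs293, Rs304), except that PCN lacked an Rs256 array and held 2. The labels give neither the meaning of the code nor the strain, sex or age of the animals, so p-values measure the spread between these 35 arrays, which may be technical. The 3 fungicides share a triazole ring; beside it Propiconazole has a dioxolane ring, Myclobutanil a nitrile and Triadimefon a ketone.

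Fatty acid binding proteins are small cytosolic carriers that hold long-chain fatty acids and pass them to membranes, to the enzymes that burn or store them, and to lipid-sensing receptors in the nucleus. Fabp1 is the liver form and one of the most abundant cytosolic proteins of hepatocytes, whereas Fabp5 is the epidermal form and is also made by macrophages and other cells. Cd36 binds fatty acids at the cell surface, and Slc27a2 takes up and activates very long-chain fatty acids. In rodent liver Fabp1 and Cd36 are known targets of the fatty acid receptors of the PPAR family.

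Levels are given in normalized units of the deposited log-like score, whose base is not stated, so differences are not folds. If the control transcripts bioC, bioD and cre were added at the manufacturer's standard 5, 25 and 100 pM, a doubling corresponded to 0.468 units. Arrays had medians between -0.03 and 0.02 and SDs between 0.646 and 0.941 before normalization. The widest spread, 0.941, belonged to the Rs293 array of Propiconazole 30 uM. Differences from DMSO that were called for that group are therefore also given without it. Hepatocyte markers were present: 9 of 10 measured ones had a mean level above the 90th percentile of the array, the exception being Cyp3a2, a hormone-dependent cytochrome P450. Of the endothelial markers 8 of 8 had a mean level under the array's median, as did Adipoq, Lep, Plin1 and Cfd among 6 adipocyte markers. Cidec and Lipe, the other adipocyte markers measured, had mean levels at the 94.2nd and 72.4th percentiles. Of 9 stellate cell and fibroblast markers 7 had a mean level under the median, while Acta2 and Des lay at the 71.8th and 50.8th percentiles. Of 5 measured markers of cholangiocytes, the bile duct cells, 3 lay under it, while Epcam and Krt19 lay at the 96.5th and 57.4th percentiles. Macrophage markers are given beside Fabp5.

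The proximal promoters of 5 of the 7 genes were in the RefSeq table of build GRCr8, which gives 250 bases before to 50 bases after the start of the gene. Those of Fabp1, Slc27a2 and Cd36 are shown because these 3 genes were lower in treated cells. Capitals mark matches to AGGNCANAGGNCA, a direct repeat with 1 base between its copies of the kind that PPAR and RXR bind together, or to the single copy AGGTCA, on either strand.
Fabp1, chr4:104749090-104749389, plus strand: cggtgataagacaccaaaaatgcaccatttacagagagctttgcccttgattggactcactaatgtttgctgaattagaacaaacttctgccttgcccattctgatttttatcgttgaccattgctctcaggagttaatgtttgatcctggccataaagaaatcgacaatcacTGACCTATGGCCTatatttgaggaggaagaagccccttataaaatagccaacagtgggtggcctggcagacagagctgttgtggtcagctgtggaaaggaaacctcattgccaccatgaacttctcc
Slc27a2, chr3:134257851-134258150, plus strand: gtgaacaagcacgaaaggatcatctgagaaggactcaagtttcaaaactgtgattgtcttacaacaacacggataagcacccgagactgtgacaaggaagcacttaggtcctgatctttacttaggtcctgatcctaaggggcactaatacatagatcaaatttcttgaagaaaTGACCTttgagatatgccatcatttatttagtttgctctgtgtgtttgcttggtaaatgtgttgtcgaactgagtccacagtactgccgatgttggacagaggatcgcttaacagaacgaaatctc
Cd36, chr4:18246332-18246631, plus strand: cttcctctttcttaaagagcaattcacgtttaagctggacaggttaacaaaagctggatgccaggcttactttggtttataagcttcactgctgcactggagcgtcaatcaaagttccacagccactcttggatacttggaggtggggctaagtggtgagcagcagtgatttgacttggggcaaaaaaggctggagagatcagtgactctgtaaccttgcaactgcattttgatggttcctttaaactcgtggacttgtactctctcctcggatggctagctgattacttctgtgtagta
The Fabp1 promoter held the full repeat on the minus strand, read on the plus strand as TGACCTATGGCCT at -77 to -65 from the start, and its first 6 bases TGACCT are also the AGGTCA match. Slc27a2 held the single copy alone, TGACCT at -76 to -71, and Cd36 held neither. The full repeat occurred in 139 of 33469 promoters of the same length (0.415%) and the single copy in 5415 (16.2%). In the promoters not printed, Fabp7 held the single copy at -196 to -191, and Fabp2 held TGAACTTTGAACT at -106 to -94, a match to the looser AGNNCANAGNNCA, which was in 890 promoters (2.66%) and which the Fabp1 repeat also satisfies. These letters were chosen after the sequences had been seen, and a match is a description of the window, not a site.

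The mean level of Fabp1, the liver carrier, was lower than in DMSO with every treatment, and it went down step by step with dose for each fungicide. In the Propiconazole series Fabp1 stood at 1.37, 2.03 and 1.95 in DMSO (Rs256, Rs293 and Rs304), at 1.35, 1.36 and 1.62 with 10 uM, at 0.56, 1.02 and 0.99 with 30 uM, and at 0.23, 0.22 and 0.35 with 100 uM. All other groups lay at 0.56 or higher, except for the Rs293 array of Myclobutanil 100 uM at 0.24. With Myclobutanil, Fabp1 read 1.34, 1.40 and 1.95 at 10 uM, 1.11, 1.11 and 1.64 at 30 uM, and 0.81, 0.24 and 0.98 at 100 uM. With Triadimefon it read 1.22, 1.33 and 1.53 at 10 uM, 1.11, 0.93 and 1.10 at 30 uM, and 0.85, 0.89 and 1.05 at 100 uM, so that the last step was small. At 100 uM none of the 3 groups overlapped with the DMSO arrays, and within a code the level was lower at each step of dose in 9 of 9 series.

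Because the 100 uM arrays led to the choice of Fabp1, its differences there are a description without a test. Fabp1 differed from DMSO by -1.52 with Propiconazole, -1.11 with Myclobutanil and -0.85 with Triadimefon at 100 uM (SE 0.233 each), and single codes ranged from -1.81 to -0.52. The Myclobutanil value rests more than the others on 1 code: without the Rs293 arrays it was -0.76. In bulk RNA, fewer cells that make a transcript and less of it per cell cannot be told apart. In the Propiconazole 100 uM arrays Fabp1 reached on average the 65.5th percentile of the array, against the 94.8th in DMSO. The list of hepatocyte markers averaged 3.02 to 3.18 on the Propiconazole 100 uM arrays, against 3.00 to 3.17 on the DMSO arrays. Of 10 tested markers limma called 1, lower, where 12% of all genes were called. With the Rs code as a replicate block 2 were called higher and 1 lower, where 29.3% of all genes were called. The average hides such single differences, and a loss of cells was not tested.

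For the other doses and the inducers, tests came from limma over 10490 genes, with p adjusted by Benjamini and Hochberg and a call below 0.05. They use the same 3 DMSO arrays as the differences that led to the choice, so for Fabp1 and Fabp5 they are not independent of it. The same fit was run with the Rs code as a replicate block, since arrays of 1 code deviated together. Propiconazole at 30 uM gave Fabp1 a difference of -0.93 (SE 0.233), with limma's adjusted p = 0.179 and, with the block, 0.0108 (SE 0.199). Without the Rs293 array of that group the blocked difference was -1.05 with adjusted p = 0.0199, while on the values as deposited it was -0.78 with adjusted p = 0.0674, and 2 of 5 other blocked fits kept the call. Triadimefon at 30 uM gave -0.74 (adjusted p = 0.490 in limma, 0.0644 with the block), and Myclobutanil at 30 uM -0.50 (adjusted p = 1, and 0.849 with the block). The 10 uM and PCN differences of Fabp1 had 95% intervals in limma that spanned 0. They were -0.34 (-0.82 to 0.14) with Propiconazole, -0.22 (-0.70 to 0.26) with Myclobutanil, -0.42 (-0.90 to 0.06) with Triadimefon and -0.30 (-0.83 to 0.24) with PCN. With the block only the Triadimefon interval excluded 0 (-0.83 to -0.01). With PB, Fabp1 read 1.08, 0.71 and 1.73, and with PCN 1.86 and 1.12 (Rs293 and Rs304), against 1.37, 2.03 and 1.95 in DMSO. PB thus stood 0.61 units lower on average, with a 95% interval of -1.09 to -0.13, and of -1.02 to -0.20 with the block. Both intervals excluded 0, but limma did not call the difference (adjusted p = 1, and 0.758 with the block).

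**Figure D1:**
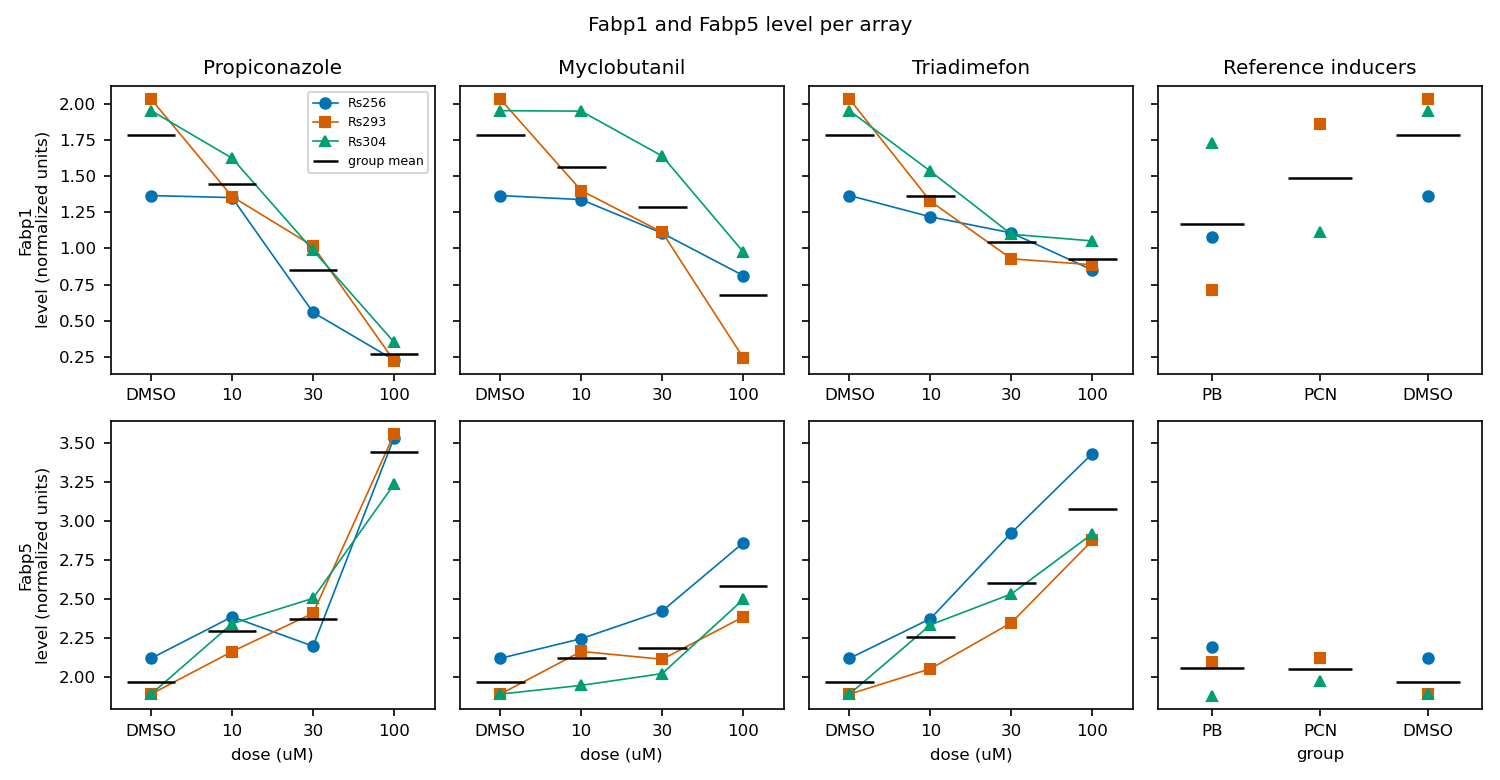
Level of Fabp1 (top) and Fabp5 (bottom) in normalized units on every array. Columns are the 3 fungicides by dose in uM, from DMSO upward, and PB 200 uM and PCN 30 uM beside DMSO; colours and symbols mark the Rs code, lines join arrays of 1 code, and black bars are group means. Fabp1 ends at 0.22 to 0.35 and Fabp5 at 3.23 to 3.55 with Propiconazole at 100 uM.

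Fabp5, the epidermal carrier, went the other way. In the Propiconazole series its level was 2.12, 1.89 and 1.89 in DMSO, 2.39, 2.16 and 2.34 with 10 uM, 2.20, 2.41 and 2.50 with 30 uM, and 3.53, 3.55 and 3.23 with 100 uM. As deposited, the 30 uM array of Rs293, that of the widest spread, read 3.48, above the 3.10 of its 100 uM array. The deposited means were 1.90 in DMSO, 2.65 with 30 uM and 3.25 with 100 uM. On the normalized values most of the difference came between 30 and 100 uM, and in Rs256 and Rs304 also on those deposited. With Triadimefon it was more evenly spread over dose, at 2.37, 2.05 and 2.33 with 10 uM, 2.92, 2.35 and 2.53 with 30 uM, and 3.43, 2.88 and 2.92 with 100 uM. With Myclobutanil Fabp5 read 2.24, 2.16 and 1.95 at 10 uM, 2.42, 2.11 and 2.02 at 30 uM, and 2.86, 2.38 and 2.50 at 100 uM. No array at 100 uM of any fungicide reached down to the DMSO range. Within a code Fabp5 was higher at each step of dose in 7 of 9 series (6 of 9 as deposited).

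The differences from DMSO at 100 uM, again a description, were 1.47 with Propiconazole, 0.61 with Myclobutanil and 1.11 with Triadimefon (SE 0.157 each), with single codes between 0.49 and 1.67. In the order of group means, Fabp5 was farther from DMSO with Triadimefon than with Myclobutanil, and Fabp1 the reverse, although for Fabp1 the arrays of these groups overlap. Triadimefon minus Myclobutanil at 100 uM was 0.50 for Fabp5 and 0.25 for Fabp1, and Propiconazole minus Triadimefon was 0.37 for Fabp5 and -0.66 for Fabp1, without a test because these arrays chose the genes.

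Triadimefon at 30 uM gave Fabp5 a difference of 0.63 (SE 0.157; limma adjusted p = 0.270, and 0.00799 with the block). On the values as deposited the blocked adjusted p was 0.474, and without the Rs256 or the Rs304 arrays 0.117 and 0.200, so the call did not survive those changes. Propiconazole at 30 uM gave 0.40 (adjusted p = 0.634, and 0.0649 with the block), a value not recomputed without the Rs293 array of that group. With the inducers Fabp5 overlapped the vehicle, at 2.19, 2.09 and 1.88 with PB and 2.12 and 1.97 with PCN, against 2.12, 1.89 and 1.89 in DMSO, with a difference of 0.09 for PB (95% interval -0.23 to 0.41). For PCN, which has no Rs256 array, it was 0.08 (-0.28 to 0.44), and 0.16 (-0.11 to 0.44) with the block. RefSeq lists 2 pseudogene copies of Fabp5, Fabp5-ps2 on chromosome 1 and Fabp5-ps3 on chromosome 20, and whether the probe set also reads them was not tested.

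Fabp5 is known from macrophages, so their markers stand beside it. Of 10 measured macrophage markers, Cd14, Lyz2 and C1qb lay above the median of every array, Cd68 and Aif1 on 32 of 35 arrays each, Clec4f on 21 and Csf1r on 9, while Cd163, C1qa and Ptprc lay below it on every array. Their list averaged 0.252 to 0.395 on the Propiconazole 100 uM arrays, against 0.147 to 0.369 on the DMSO arrays, and these ranges overlap. With Propiconazole at 100 uM, 1 of 7 tested macrophage markers was called, where limma called 12% of all genes, and 2 of 7 with the block, where 29.3% were. These were Cd68, a lysosomal membrane protein of macrophages and other cells (0.80, limma adjusted p = 0.00727), and with the block also Cd14, a receptor for bacterial lipopolysaccharide (0.39). The list's median was -0.01, with 5 of 7 below 0. The part of such cells in the Fabp5 values was not tested.

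**Figure D2:**
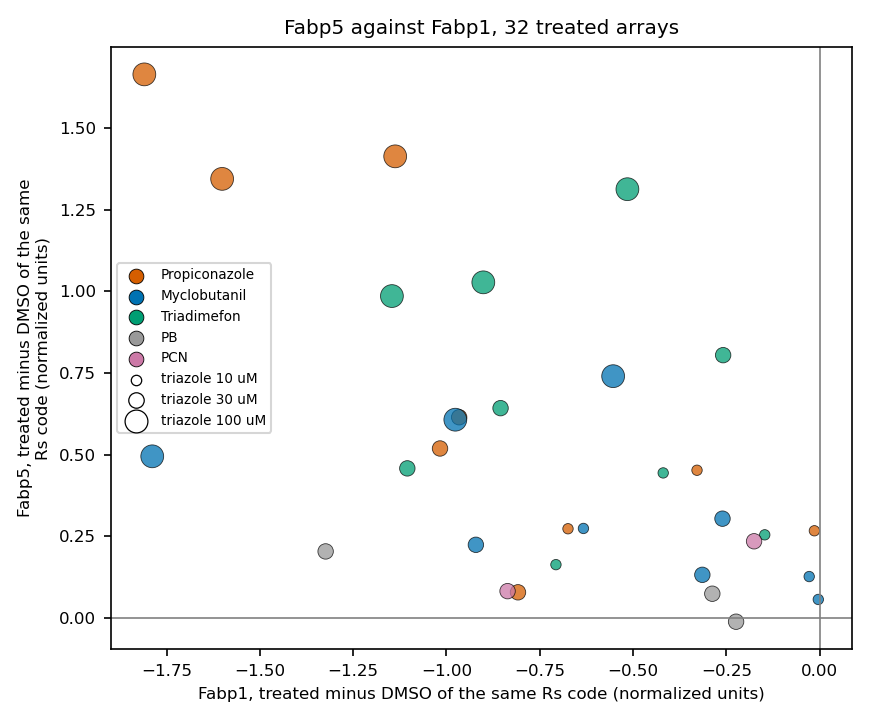
Difference of Fabp5 (vertical) against that of Fabp1 (horizontal) on each of 32 treated arrays, as treated minus the DMSO array of the same Rs code, in normalized units. Colour marks the compound and symbol size the triazole dose (PB and PCN are drawn at the middle size); every array lies left of 0 for Fabp1 and 31 of 32 lie above 0 for Fabp5.

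Set against the DMSO array of its own code, Fabp1 was lower on 32 of 32 treated arrays and Fabp5 higher on 31 of 32, and on the values as deposited 32 of 32 each. Each code has 1 DMSO array, so the differences within a code share it. Over 35 arrays with code means removed, Fabp1 and Fabp5 had a Pearson r of -0.70, given as a description because the 100 uM arrays chose both. The Rs293 array of PB had Fabp1 at 0.71, within the range of the 30 uM Propiconazole arrays, with Fabp5 at 2.09, below that range.

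Slc27a2, the very long-chain fatty acid transporter, was lower with every treatment, as Fabp1 was, and its fall with Propiconazole at 100 uM was called under every setting run. In the Propiconazole series its level was 2.54, 2.58 and 2.87 in DMSO, 2.10, 2.21 and 2.55 with 10 uM, 1.91, 2.00 and 2.25 with 30 uM, and 1.05, 1.32 and 1.46 with 100 uM. The arrays at 100 uM lay below all other arrays of the study. At 100 uM Myclobutanil left Slc27a2 at 1.75, 1.74 and 2.10 and Triadimefon at 1.65, 1.77 and 2.05, both below the DMSO range of 2.54 to 2.87. Within a code the level was lower at each step of dose in 9 of 9 series, and it lay below the DMSO array of its code on 32 of 32 treated arrays. On the values as deposited these counts were 8 of 9 and 30 of 32, the exceptions lying in Rs293: Propiconazole 30 uM stood 0.39 above its DMSO array and PCN 0.01 above.

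With Propiconazole at 100 uM Slc27a2 fell by 1.39 units (SE 0.193; limma adjusted p = 2.53e-05, and 1.31e-09 with the block). It was the only called gene among the 5 besides Fabp1 and Fabp5, where limma called 12% of all genes. With the block Cd36 joined it, where 29.3% were called. The 5 were listed with earlier results of these data known, so their tests are not fully independent of those results. With Myclobutanil Slc27a2 fell by 0.80 (adjusted p = 0.0381, and 4.99e-05 with the block), 1 of 5 genes against 1.21% of all genes, or 2 of 5 against 9.92% with the block. With Triadimefon it fell by 0.84 (adjusted p = 0.0211, and 2.90e-05 with the block), 1 of 5 against 1.83%, or 2 of 5 against 11.8% with the block. The Myclobutanil and Triadimefon calls of the unblocked fit depended on single arrays: leaving out 1 array or 1 code at a time kept 2 of 9 and 3 of 9 of them, and on the values as deposited the adjusted p was 0.347 and 0.172, or 0.0594 and 0.0293 with the block.

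At 30 uM Slc27a2 differed from DMSO by -0.61 with Propiconazole and by -0.60 with Triadimefon, called only with the block (adjusted p = 0.00445 and 0.00701; 0.400 and 0.490 in limma without it). Without the Rs293 array of Propiconazole 30 uM the blocked adjusted p was 0.0174, and on the values as deposited it was 0.326. For Triadimefon at 30 uM the adjusted p with the block was 0.457 on the values as deposited and 0.222 without the Rs256 arrays. With the block 3 of 7 genes were called for Propiconazole at 30 uM (Fabp1, Cd36 and Slc27a2), where 2.62% of all genes were. Cd36 lost its call without the Rs293 array of that group. For Triadimefon at 30 uM 2 of 7 were called with the block (Fabp5 and Slc27a2), where 1.05% of all genes were. Without the block limma called 0 of 7 in each, where 0.0381% and 0.0286% of all genes were called, although 3 of 7 had an unadjusted p under 0.05 in each. Myclobutanil at 30 uM gave 0 of 7 in limma and with the block, where 0.00953% and 0.0191% of all genes were called, with 2 and 3 of 7 at an unadjusted p under 0.05.

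**Figure D3:**
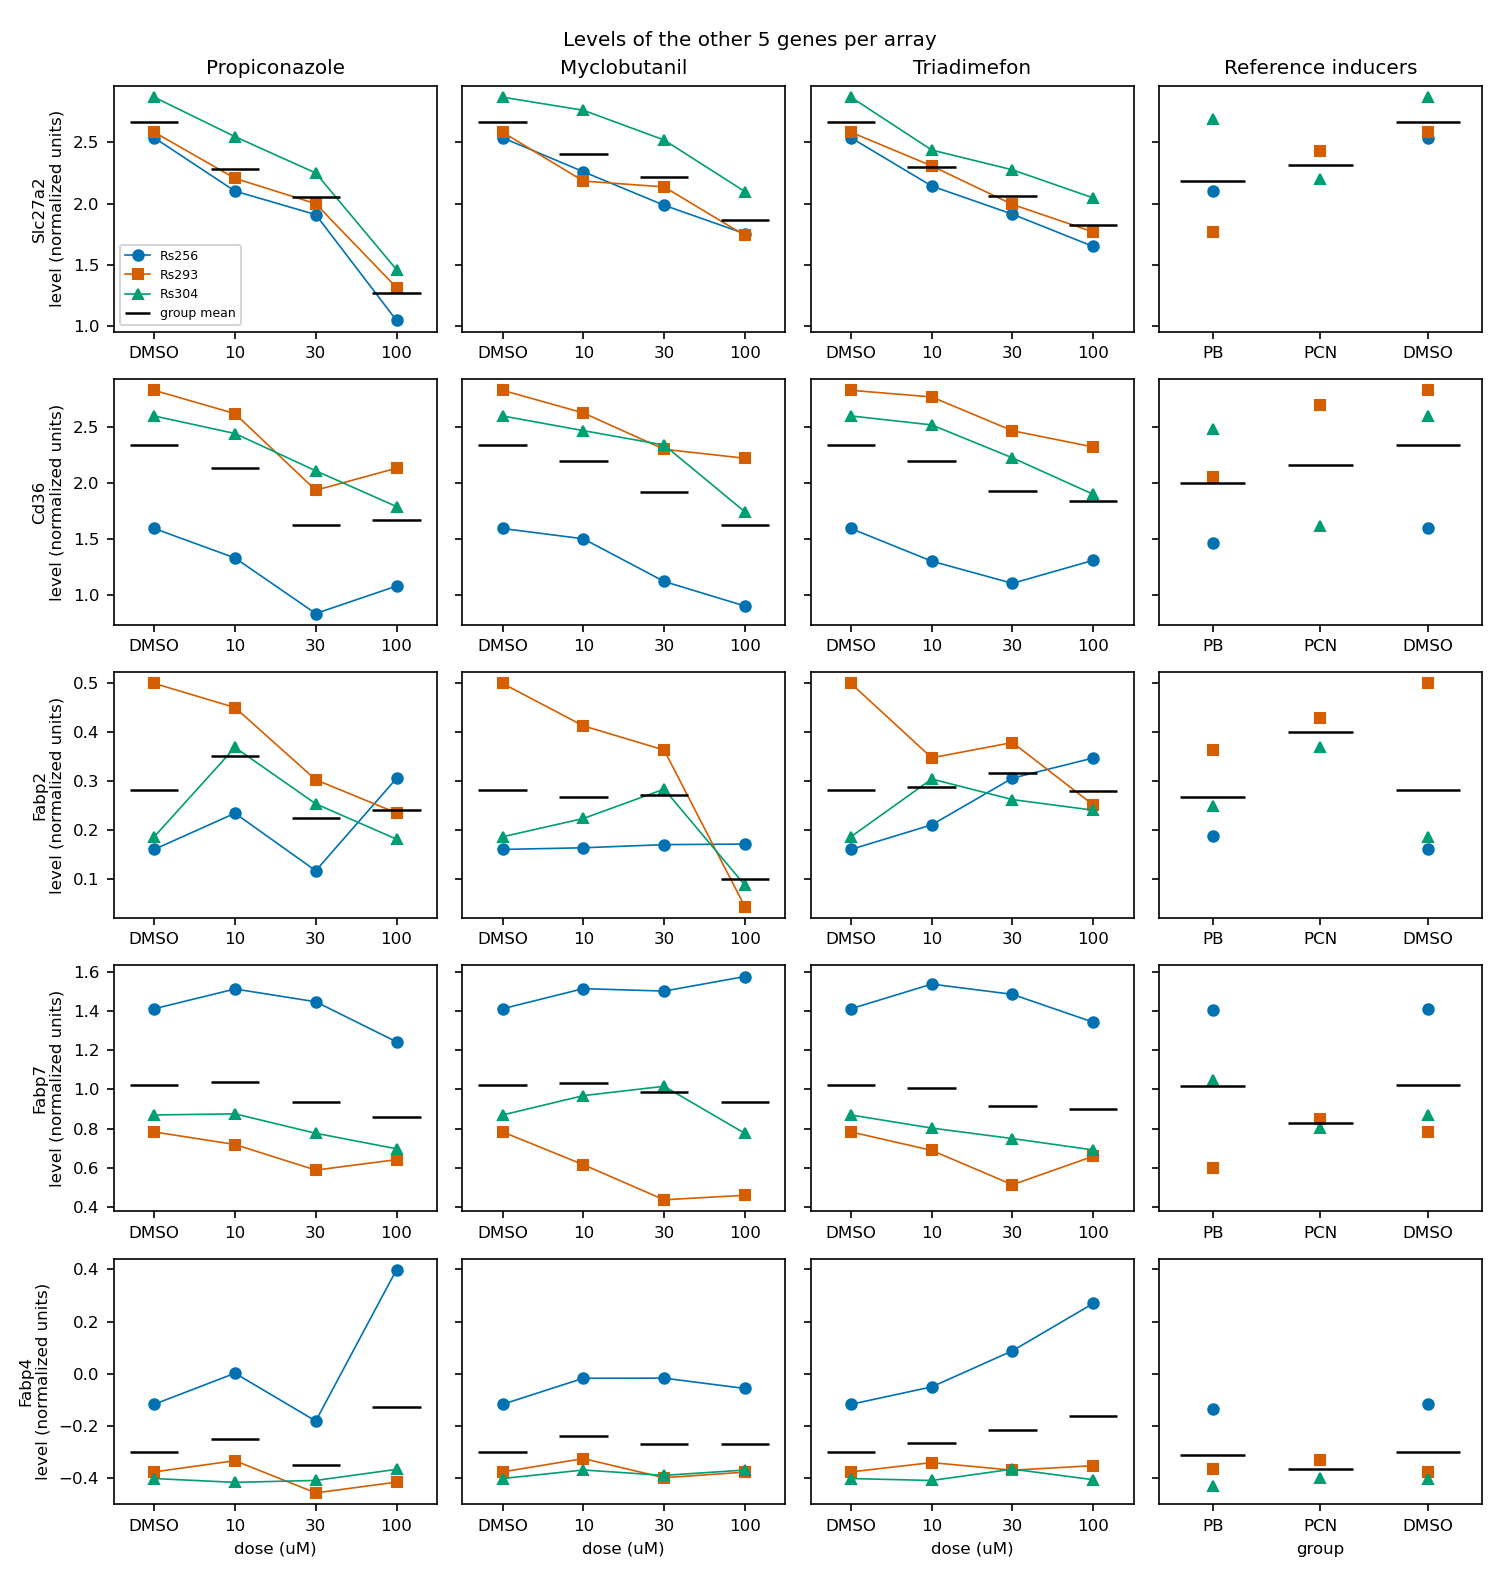
Level of Slc27a2, Cd36, Fabp2, Fabp7 and Fabp4 (top to bottom) in normalized units on every array, laid out by fungicide and dose in uM and by PB, PCN and DMSO, with colours and symbols for the Rs code and black bars for group means. Slc27a2 descends with dose in every code, while the Rs256 arrays stand apart for Cd36, Fabp7 and Fabp4.

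Cd36, the fatty acid receptor at the cell surface, was lower in treated cells, but its level depended far more on the code. The Rs256 arrays lay between 0.83 and 1.59, the Rs293 arrays between 1.93 and 2.82 and the Rs304 arrays between 1.62 and 2.60, so that the lowest code did not overlap with the others. In the Propiconazole series Cd36 read 1.59, 2.82 and 2.60 in DMSO, 1.33, 2.62 and 2.44 with 10 uM, 0.83, 1.93 and 2.11 with 30 uM, and 1.08, 2.13 and 1.79 with 100 uM. At 100 uM it read 0.90, 2.22 and 1.74 with Myclobutanil and 1.31, 2.32 and 1.90 with Triadimefon. The groups overlap with DMSO as a whole, but within a code Cd36 lay below its DMSO array on 32 of 32 treated arrays, and it was lower at each step of dose in 6 of 9 series. On the values as deposited these counts were 28 of 32 and 4 of 9, the 4 arrays above DMSO being Rs293 arrays that stood 0.01 to 0.14 higher (Propiconazole 10 and 30 uM, Myclobutanil 10 uM and PCN).

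Limma without the block called no difference in Cd36 (smallest adjusted p against DMSO 0.477, SE 0.508). With the block Cd36 was called lower at 100 uM, with differences of -0.67 for Propiconazole, -0.72 for Myclobutanil and -0.50 for Triadimefon (SE 0.163; adjusted p = 0.00257, 0.00543 and 0.0465). On the values as deposited the same blocked fit kept the Propiconazole call (adjusted p = 0.0370) and lost the other 2 (0.0873 and 0.348). At 30 uM of Propiconazole the blocked difference was -0.71 (adjusted p = 0.0165), and without the Rs293 array of that group it was -0.62 (adjusted p = 0.0820). Cd36 was also lower with the inducers. The blocked differences were -0.34 (95% interval -0.67 to -0.0045) for PB and -0.54 (-0.92 to -0.16) for PCN. Neither was called (limma adjusted p with the block 0.9998 and 0.777). The PCN arrays differed from the DMSO array of their code by -0.13 in Rs293 and -0.98 in Rs304. RefSeq lists a copy of Cd36, Cd36-ps1 on chromosome 4, typed as protein-coding, and whether the Cd36 probe sets also read it was not tested. The probe set shared with Cd36l1 had group means from 2.13 with Propiconazole at 100 uM to 2.82 in DMSO, was below its DMSO array on 32 of 32 treated arrays (27 of 32 as deposited, where Propiconazole 30 uM Rs293 stood 1.08 above), and was lower at each step of dose in 7 of 9 series (4 of 9 as deposited).

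Fabp2, Fabp7 and Fabp4, the intestinal, brain and adipocyte forms, were called in no comparison with DMSO, with or without the block. Fabp2 stayed between 0.04 and 0.50 on all 35 arrays, and its lowest group was Myclobutanil 100 uM, at 0.17, 0.04 and 0.09 against 0.16, 0.50 and 0.19 in DMSO. That difference was -0.18 (95% interval -0.34 to -0.02; limma adjusted p = 0.386, and 0.0740 with the block). Fabp7 was set by the code, at 1.24 to 1.57 in Rs256, 0.44 to 0.85 in Rs293 and 0.69 to 1.05 in Rs304. Its differences from DMSO at 100 uM ran from -0.16 to -0.08, with 95% intervals of the blocked fit from -0.34 at the lowest to 0.10 at the highest. Against the DMSO array of its code, Fabp7 was lower on 8 of 9 fungicide arrays at 100 uM (7 of 9 as deposited). Fabp4 lay between the 2.14th and the 11.6th percentile of the array in Rs293 and Rs304, and above the array's median only on 4 of 11 Rs256 arrays.

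Of those, the Rs256 array of Propiconazole 100 uM had Fabp4 at 0.40 and that of Triadimefon 100 uM at 0.27, against -0.12 on the Rs256 DMSO array, whereas on all Rs293 and Rs304 arrays Fabp4 stayed between -0.46 and -0.32. The group differences were 0.17 with Propiconazole and 0.14 with Triadimefon. Both rest on the Rs256 array of their group. Fabp4 passed the filter on low values only through 4 Rs256 arrays, these among them, so no p is given. It still counts as a tested gene in the totals. Of 6 measured adipocyte markers, Adipoq, Lep, Plin1 and Cfd were below the median of every array, while Cidec and Lipe were above it on every array. The adipocyte list averaged 0.059 to 0.133 on Propiconazole 100 uM arrays, against 0.226 to 0.261 on DMSO arrays. Within that list Cidec, a lipid droplet protein that fatty liver also makes, differed by -0.67 with Propiconazole (limma adjusted p = 0.00227).

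**Figure D4:**
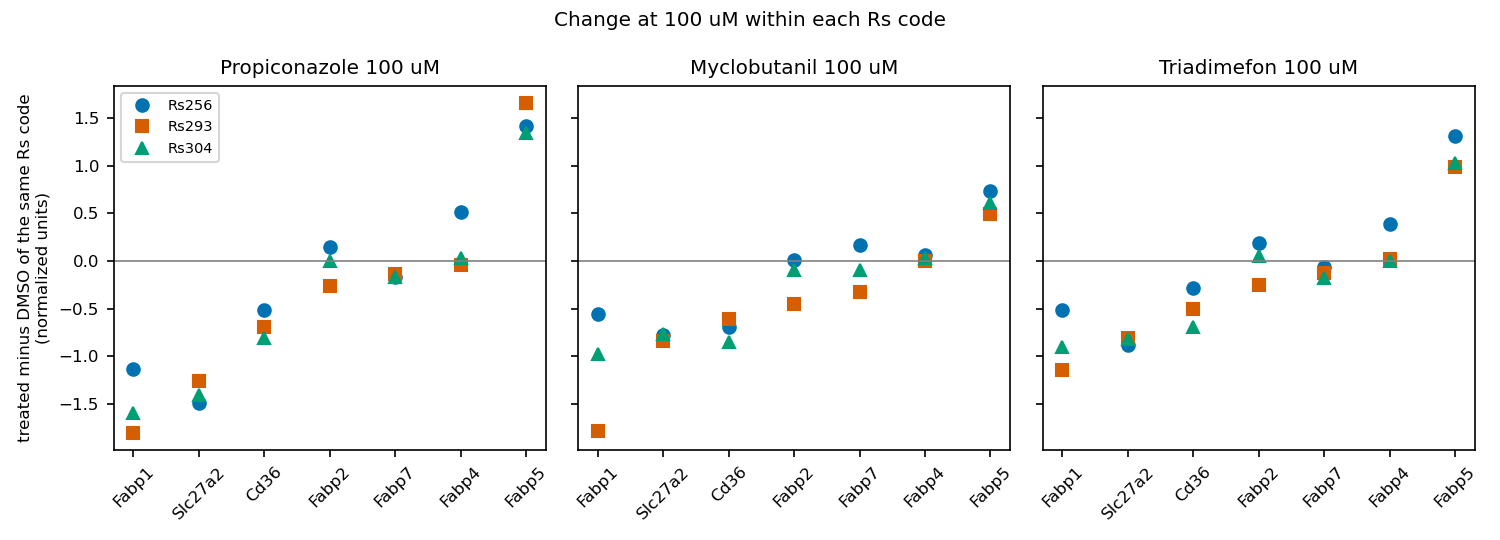
Difference of each gene from the DMSO array of the same Rs code at 100 uM of Propiconazole (left), Myclobutanil (middle) and Triadimefon (right), in normalized units, with 1 point per code. Fabp1, Slc27a2 and Cd36 lie below 0 and Fabp5 above 0 in all 9 code and fungicide pairs. Fabp7 lies below 0 in 8 of the 9, while Fabp2 and Fabp4 lie on both sides of 0.

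At 10 uM none of the 7 genes was called against DMSO. Limma called 0 of 21 gene and fungicide pairs, and the blocked fit also 0, with 1 and 6 at an unadjusted p under 0.05. Over all genes limma called 0.00953% for Propiconazole and 0% for Myclobutanil and Triadimefon at 10 uM, and the blocked fit 0.0191%, 0.00953% and 0.00953%. For PB and PCN both fits called 0 of 14 gene and inducer pairs, with 2 and 5 at an unadjusted p under 0.05. There limma called 0.00953% of all genes for PB and 0.00953% for PCN, and the blocked fit 0.0191% and 0.0286%. Slc27a2 read 2.10, 1.77 and 2.69 with PB and 2.43 and 2.20 with PCN, against 2.54, 2.58 and 2.87 in DMSO, a difference of -0.48 (95% interval -0.87 to -0.08; -0.70 to -0.25 with the block) for PB. For PCN it was -0.34 (-0.79 to 0.10), and with the block -0.42 (-0.68 to -0.17), with adjusted p = 0.668. Over all 11 treatments limma called 3 of 71 tested gene and treatment pairs, all of them Slc27a2 at 100 uM, and the blocked fit 11. By treatment, the share of all genes called ran from 0% to 12% in limma and from 0.00953% to 29.3% with the block.

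The fungicides were compared with each other at matched doses, 9 pairs in all. At 10 uM and 30 uM no gene of the array was called for any of the 6 pairs by limma or by the blocked fit (0% in each). Of 21 member differences at each dose, 0 at 10 uM and 1 at 30 uM had an unadjusted p under 0.05 in limma, 0 and 2 with the block, and the one in limma was Fabp5 in Triadimefon minus Myclobutanil at 30 uM (0.42, 95% interval 0.09 to 0.74, limma adjusted p = 0.9999). At 100 uM Slc27a2 was lower with Propiconazole than with Myclobutanil (-0.59 units) and than with Triadimefon (-0.55), called only with the block (limma adjusted p = 0.206 and 0.319; 0.00154 and 0.00359 with the block). On the values as deposited the blocked adjusted p was 0.187 and 0.288. It was the only one of 5 genes called with the block, where 7.09% and 4.59% of all genes were, and limma without it called 0 of 5, where 0.744% and 0.505% were, with 1 of 5 at an unadjusted p under 0.05 in each.

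Between Triadimefon and Myclobutanil at 100 uM no member was called, where limma called 0% of all genes and the blocked fit 0.00953%, and 1 of 5 had an unadjusted p under 0.05 in each. Slc27a2 differed there by -0.04 (95% interval -0.44 to 0.35; -0.27 to 0.18 with the block), and Cd36 by 0.22 (-0.11 to 0.56 with the block). Propiconazole and Myclobutanil differed for Cd36 by 0.05 (-0.29 to 0.38 with the block). The Slc27a2 slope per factor of 10 in dose between 10 and 100 uM was -1.02 for Propiconazole (SE 0.193; limma adjusted p = 0.00116), -0.54 for Myclobutanil (adjusted p = 0.337, and 0.00394 with the block) and -0.47 for Triadimefon (adjusted p = 0.614, and 0.0181 with the block). Limma called 1, 0 and 0 of 5 genes for these slopes, where 8.73%, 0.248% and 0.0763% of all genes were called. With the block 2, 2 and 1 of 5 were called, where 24.8%, 6.63% and 2.93% of all genes were. These were Slc27a2 in all 3 and Cd36 with Propiconazole (-0.45, adjusted p = 0.0420) and Myclobutanil (-0.58, adjusted p = 0.0323). Of the calls made only with the block, Cd36 kept 2 of 5 and 1 of 4 in the other blocked fits, and the Slc27a2 slopes of Myclobutanil and Triadimefon 1 of 4 each. Without the block, leaving out the Rs256 array of 100 uM moved the Cd36 slope to -0.16 with Propiconazole and -0.21 with Myclobutanil, and leaving out that of 10 uM to -0.85 and -0.92.

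Among 6 tested lipid binding proteins outside the set, 2 were called with Propiconazole at 100 uM, where limma called 12% of all genes, and 2 with the block, where 29.3% were. Rbp7, a retinol binding protein, was higher by 0.31 (limma adjusted p = 0.00702), while Scp2, the sterol carrier of peroxisomes, differed by -0.33 (adjusted p = 0.00526). Fabp3, the heart form, differed by 0.02 (adjusted p = 0.836), and the list's median was 0.03, against 0.01 over all tested genes. Of 14 tested genes of fatty acid uptake and activation, 3 fell with Propiconazole at 100 uM and 0 rose, again beside 12% of all genes. These were Slc27a5, the bile acid and very long-chain acyl-CoA ligase (-1.24, adjusted p = 0.0247), Lipc, the hepatic lipase (-0.59, adjusted p = 0.00288), and Acsl1, a main acyl-CoA synthetase of liver (-0.36, adjusted p = 0.0494). With the block 6 fell and 1, the lipoprotein receptor Vldlr, rose, beside 29.3% of all genes.

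Most genes on a list that PPAR receptors are known to switch on were lower. Of 21 tested, 18 fell and 0 rose with Propiconazole at 100 uM, 10 fell with Myclobutanil and 5 with Triadimefon, where limma called 12%, 1.21% and 1.83% of all genes. With the block 19, 19 and 15 fell, where 29.3%, 9.92% and 11.8% of all genes were called. The list's medians were -0.80, -0.52 and -0.39, against 0.01 over all tested genes in each case. The largest differences with Propiconazole were those of the fatty acid hydroxylases Cyp4a3 (-2.01) and Cyp4a1 (-1.91), the lipoprotein lipase inhibitor Angptl4 (-1.86), the mitochondrial enoyl-CoA isomerase Eci1 (-1.54), the pantetheinase Vnn1 (-1.22) and Cpt1a (-1.19), which admits fatty acids to mitochondria. The list was drawn up with results of these arrays known, so its direction is no independent evidence.

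Of 15 tested lipid-sensing receptors and partners, Rxrg, a partner of PPAR, was the only one called with Propiconazole at 100 uM (-0.28, limma adjusted p = 0.0494), a share below the 12% of all genes. With the block 2 rose, Ppard among them, and 2 fell, where 29.3% of all genes were called. Ppara, the main PPAR of hepatocytes, differed by 0.12 (adjusted p = 0.337, and 0.206 with the block). Ppard was higher by 0.21 with Propiconazole, 0.24 with Myclobutanil and 0.26 with Triadimefon, called only with the block (adjusted p = 0.00586, 0.00715 and 0.00334; 0.108, 0.218 and 0.126 in limma).

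**Figure D5:**
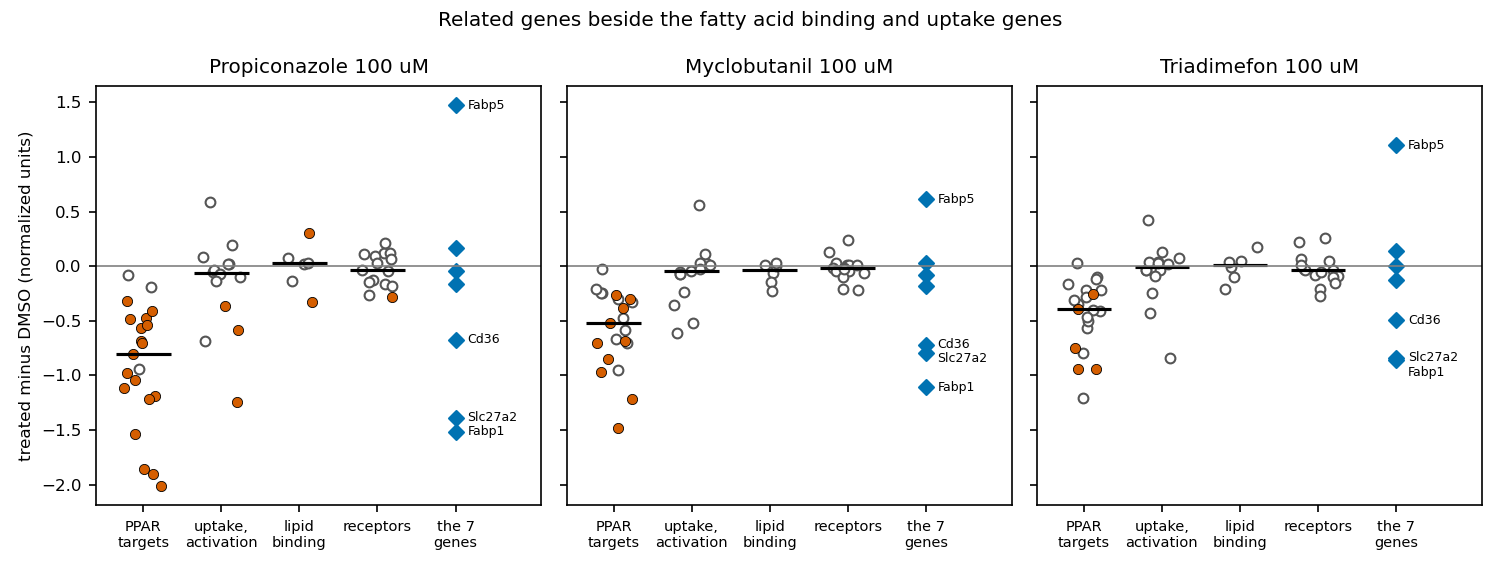
Difference from DMSO at 100 uM of each fungicide, in normalized units, for the tested genes of 4 lists and for the 7 genes (blue diamonds, 4 of them named, no call shown). Orange circles are genes called by limma without the block, open circles those not called, and bars list medians; the PPAR target list has its median at -0.80 with Propiconazole.

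The genes whose pattern over 35 arrays was most like that of Fabp1, with the mean of each code removed, were Acadm (Pearson r 0.96), Cyp4a3 (0.94), Ech1 (0.94), Hsd17b10 (0.93), Decr1 (0.93) and Cyp4a1 (0.93), and over the 26 arrays outside the 100 uM groups, which are among those that picked these genes, r was between 0.88 and 0.93. Acadm, Ech1 and Decr1 encode enzymes of fatty acid oxidation. Those most opposed were Mlec (-0.93), Tmbim1 (-0.93) and Slc43a1 (-0.92). For Fabp5 they were Cystm1 (0.97), Cox6a2 (0.94), Cisd2 (0.93), the desaturase Fads2 (0.93), Xkr8 (0.93) and Nudt18 (0.92), with Hrg (-0.94), Agmo (-0.93) and Etnk1 (-0.93) opposed. Without the 100 uM arrays the Fabp5 values were lower in size, from 0.76 to 0.90 for the alike genes and -0.74 for each opposed one. All these arrays share 3 DMSO arrays and the same normalization, and no p is given.

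The 12 groups ordered by mean level had opposite ends for Fabp1 and Fabp5, which restates how they were chosen. Fabp1 averaged 0.27 ± 0.07 with Propiconazole at 100 uM, the lowest, and 1.78 ± 0.36 in DMSO, the highest (SD, n = 3 each). Fabp5 averaged 3.44 ± 0.18 with Propiconazole at 100 uM, the highest, and 1.97 ± 0.13 in DMSO, the lowest (SD, n = 3 each). Slc27a2 had the ends of the Fabp1 order, 1.28 ± 0.21 with Propiconazole at 100 uM and 2.66 ± 0.18 in DMSO (SD, n = 3 each). Neighbours in these orders rarely parted: the array ranges of adjacent groups overlapped in 11 of 11 neighbouring pairs for Fabp1 and Fabp5 and in 10 of 11 for Slc27a2, where Propiconazole and Triadimefon at 100 uM did not overlap.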

How the data were processed

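RNA of primary rat hepatocytes was measured on 35 Affymetrix rat expression arrays, per the labels' protocols. The deposited values are a score on a log-like scale, and how the authors summarised, corrected and normalized probes is not given in the sources used here. The table held 31099 probe sets, 57 of them controls. The platform annotation named 1 gene for 20826, several for 436 and none for 9780, and 20758 matched a RefSeq gene. A gene was represented by its brightest probe set and tested if above the array's median on at least 2 arrays (10490 of 14217 genes).

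Arrays were quantile-normalized and fitted with limma 3.58.1 in R 4.3.3 (lmFit, eBayes, 1 mean per group, no covariate, two-sided), with p adjusted by Benjamini and Hochberg over all tested genes. This fit was tested on simulated data. Contrasts were 11 treatments against DMSO, 9 pairs of fungicides at equal dose and 3 slopes. The Rs code was taken as a replicate number. Deviations from the group means of same-code arrays, in the groups compared, correlated at r between 0.277 and 0.952 (86 pairs, median 0.70), so the numbers pair the samples, and results of the fit with the code as a replicate block stand beside those they change. Alternatives were the values as deposited, median centring, no filter, each probe set as a feature, only the groups compared, and arrays left out. The number of arrays limits the precision.

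The members, gene lists and tests were chosen with earlier results of these data known. The 100 uM arrays led to the choice of Fabp1 and Fabp5, so nothing of these 2 genes that uses those arrays was tested. Their tests at other doses share the DMSO arrays of that choice. Named beside the members are up to 6 called genes per list with the largest difference, and for Fabp1 and Fabp5 the 6 genes with the highest and the 3 with the lowest Pearson r. Of the receptor genes called with the block alone, only Ppard was named. Ppard, Ppara, Fabp3, Vldlr, Cidec and the macrophage, stellate cell and cholangiocyte markers were named after their values were seen.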

Additional observations from a re-analysis of the deposited data

How the results depend on the processing

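Among the single differences and slopes recomputed under the alternatives (Fabp1, Fabp5, Cd36 and Slc27a2), none changed direction. Outside them, the replicate block turned 2 uncalled PCN differences, Fabp7 from -0.19 to 0.05 and Fabp4 from -0.07 to 0.07, and on the values as deposited 2 Slc27a2 and 4 Cd36 arrays of Rs293 stood above their own DMSO array. The total of 3 calls among 71 gene and treatment pairs was 1 on the values as deposited, with median centring and with only the groups compared, between 1 and 3 when 1 array or 1 code was left out, and 11 with the replicate block. These totals describe dependence on processing and have no share of all genes beside them. Fits added after the data had been seen combined the block with other choices. They gave 3 on the values as deposited, 10 without the Rs293 array of Propiconazole 30 uM, and 6, 15 and 8 without Rs256, Rs293 and Rs304. Of the 11 pairs that the blocked fit called, 3 were called on the values as deposited (Slc27a2 and Cd36 with Propiconazole and Slc27a2 with Triadimefon, all at 100 uM) and 4 without Rs256.

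The Slc27a2 fall with Propiconazole at 100 uM and its Propiconazole slope were called in every fit run, with limma adjusted p up to 0.00711 and 0.0458. For the falls with Myclobutanil and Triadimefon at 100 uM the adjusted p reached 0.347 and 0.213. Fabp1 at 100 uM of Myclobutanil ranged from -1.38 to -0.76 over arrays and codes left out, and was -0.76 with the block and without Rs293; the cause was not tested. Apart from the 6 differences of Fabp1 and Fabp5 at 100 uM, single values were recomputed only for results that limma called with or without the block, and other results only within the total.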
